A study of Homo sapiens with 18 samples.

Results

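The genes described here are 47 genes of DNA replication and nucleotide supply, measured in neuroblastoma cells after silencing of ERK5 (gene MAPK7), a mitogen-activated protein kinase. They were chosen by symbol from what is known of their roles, out of 17687 genes with a symbol on the array. Earlier results of these data were known when the list was chosen. All 47 had exactly 1 probe. The study used SK-N-BE(2), a neuroblastoma line with amplified MYCN, and CHLA-90, a neuroblastoma line without that amplification. In each line cells were seeded at 250000 per well with lentivirus made in HEK-293T cells, a human embryonic kidney line, and total RNA was labelled for whole-transcript arrays 72 hours later. The pLKO vector carried a short hairpin RNA against ERK5 (shERK5-4 or shERK5-5) or the control hairpin shNSC, so that all cells, the controls included, had been transduced and expressed a hairpin. The 6 groups were the 3 hairpins (shERK5-4, shERK5-5 and shNSC) in each of the 2 lines. Each group held 3 arrays of biological replicates, 18 arrays in all.

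DNA replication runs in steps that different proteins carry out. In G1 phase the origin recognition complex, CDC6 and CDT1 load the MCM2 to MCM7 helicase onto DNA, which is called licensing. At the start of S phase CDC7 and the cyclin-dependent kinases activate the helicase, and CDC45 and the GINS complex join it. Primase then begins synthesis, and DNA polymerases continue it with a sliding clamp of PCNA. Ribonucleotide reductase, thymidylate synthase and thymidine kinase make the deoxynucleotides that synthesis consumes. Many of these genes are transcribed late in G1 and in S phase under E2F factors, so that their transcripts are abundant in dividing cells and scarce in resting ones. In cultures measured in bulk, as here, fewer cells in S phase and less of a transcript per cell cannot be told apart.

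The promoters of 5 genes are shown as examples of the patterns below. CDC6 and TYMS were called lower in every hairpin comparison, and CHAF1B in all but 1. DTL was lower with 1 hairpin in both lines, and GINS3 was higher with the other. Each line gives 100 bases before and 20 bases after the transcription start, 5′ to 3′ on the gene's strand, from RefSeq's GRCh38.p14 annotation. Capitals mark runs of letters of the E2F site as searched here (TTTCCCGC, TTTGGCGC, TTTCGCGC or TTTGCCGC on either strand). The stretches lie at chr17:40287779-40287898 (CDC6), chr18:657553-657672 (TYMS), chr21:36385292-36385411 (CHAF1B), chr1:212035648-212035767 (DTL) and chr16:58392371-58392490 (GINS3), all on the plus strand.
CDC6: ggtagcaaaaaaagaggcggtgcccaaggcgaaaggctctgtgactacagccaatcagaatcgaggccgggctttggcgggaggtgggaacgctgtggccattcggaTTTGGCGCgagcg
TYMS: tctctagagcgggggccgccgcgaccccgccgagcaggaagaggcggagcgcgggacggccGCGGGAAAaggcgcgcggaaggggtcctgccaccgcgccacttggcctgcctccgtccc
CHAF1B: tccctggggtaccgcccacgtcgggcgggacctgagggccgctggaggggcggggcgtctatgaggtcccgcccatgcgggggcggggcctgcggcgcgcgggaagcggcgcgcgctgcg
DTL: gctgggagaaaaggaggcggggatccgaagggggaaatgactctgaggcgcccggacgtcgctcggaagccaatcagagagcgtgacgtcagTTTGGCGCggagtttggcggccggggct
GINS3: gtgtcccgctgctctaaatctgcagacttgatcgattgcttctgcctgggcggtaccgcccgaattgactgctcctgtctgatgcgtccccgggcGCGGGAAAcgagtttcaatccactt

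Promoter windows of 300 bases, 250 before and 50 after the start, were matched for 41 of the 47 genes (54 windows, since 10 genes had several). The E2F letters occurred in a window of 24 of the 41 genes (58.5%), against 1090 of the 27305 genes of the table (3.99%). A CCAAT box, read as the letters CCAAT on either strand, occurred in 26 of the 41 genes (63.4%), against 39.7% of all genes. The CHR letters TTTGAA, an element known from mitotic genes, occurred in 1 of the 41 (2.44%), against 18.2% of all genes. The genes are known as a class for E2F control, so these shares describe the class. The E2F letters were present in 19 of 32 genes that were lower with shERK5-4 in SK-N-BE(2) and in 5 of 9 that were not called. With shERK5-4 in CHLA-90 they were present in 9 of 17 genes called lower and in 15 of 24 not called. With shERK5-5 they were present in 5 of 7 genes called lower and 17 of 32 not called in SK-N-BE(2), and in 5 of 9 and 18 of 31 in CHLA-90.

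On the arrays the 47 genes were mostly well above the middle of the signal range. Their mean log2 signal over the 18 arrays lay at a median percentile of 79.6 among the 21448 probes, with 44 genes above the percentile of 50 and the lowest at 35.9. Array medians over all probes ranged from 5.63 up to 5.69 in SK-N-BE(2), and from 6.35 up to 6.43 in CHLA-90, so levels between the lines depend on scale. The mean correlation of an array with the others of its group was 0.989 to 0.991 for SK-N-BE(2) with shERK5-4 and CHLA-90 with shERK5-5, and 0.994 to 0.996 for the other groups. Of 14 listed markers of neuroblastoma cells 12 were measured, and 9 of them, all but ISL1, TH and DBH, had group means of 8.60 or more in all 6 groups. In SK-N-BE(2), DBH, the enzyme that makes noradrenaline, was low, with means of 3.81 with shERK5-4, 4.85 with shERK5-5 and 4.87 with shNSC, and TH, the enzyme that begins catecholamine synthesis, had 7.34, 8.68 and 8.18 in the same order. In CHLA-90, DBH had means of 8.40 with shERK5-4 and 13.17 with shERK5-5, against 13.67 with shNSC, and ISL1, a transcription factor of sympathetic neurons, had 7.31 and 10.76, against 10.59.

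The target gave a check of the ERK5 hairpin labels against shNSC, but not of the 2 ERK5 hairpins against each other. MAPK7 (probe TC1700007170.hg.1) had log2 signals of 5.97, 6.28 and 6.02 with shERK5-4 and 6.14, 6.02 and 6.28 with shERK5-5 in SK-N-BE(2), against 6.99, 6.46 and 6.90 with shNSC. In CHLA-90 it had 7.15, 7.57 and 7.33 with shERK5-4 and 7.24, 7.83 and 7.22 with shERK5-5, against 8.37, 8.24 and 8.64 with shNSC. Every hairpin array lay below every shNSC array of its line, and the hairpins did not separate. The log2 difference of shERK5-4 from shERK5-5 had a 95% confidence interval of -0.461 to 0.347 in SK-N-BE(2) and of -0.484 to 0.324 in CHLA-90.

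Unequal numbers of the replication genes were called with the 2 hairpins, and whether this followed the level of ERK5 was not tested. By limma with Benjamini-Hochberg adjustment over all probes and a threshold of 0.05, 36 of the 47 genes fell and 0 rose with shERK5-4 in SK-N-BE(2), where 11.7% of all probes were called lower and 12.2% higher. With shERK5-5 in SK-N-BE(2), 7 fell and 2 rose, against 6.07% and 6.76% of all probes. In CHLA-90, 20 fell and 0 rose with shERK5-4 (8.25% and 10% of all probes), and 11 fell and 1 rose with shERK5-5 (6.84% and 5.85%). In SK-N-BE(2) the median log2 fold change of the 47 genes was -0.91 for shERK5-4 and -0.17 for shERK5-5. In CHLA-90 it was -0.48 for shERK5-4 and -0.39 for shERK5-5, while the median of all probes lay between 0.00 and 0.05. Among probes that are not dim the shares called are larger: leaving out those below the 25 percentile of mean signal, the percentages lower and higher were 16% and 16.7% for shERK5-4 in SK-N-BE(2), 8.55% and 9.5% for shERK5-5 in SK-N-BE(2), 11.2% and 14% for shERK5-4 in CHLA-90, and 9.55% and 7.88% for shERK5-5 in CHLA-90. Both hairpins of a line were compared with the same 3 shNSC arrays, so their calls are not independent. Since the list was chosen with earlier results of these data known, its shares beside those of all probes are a description.

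**Figure D1:**
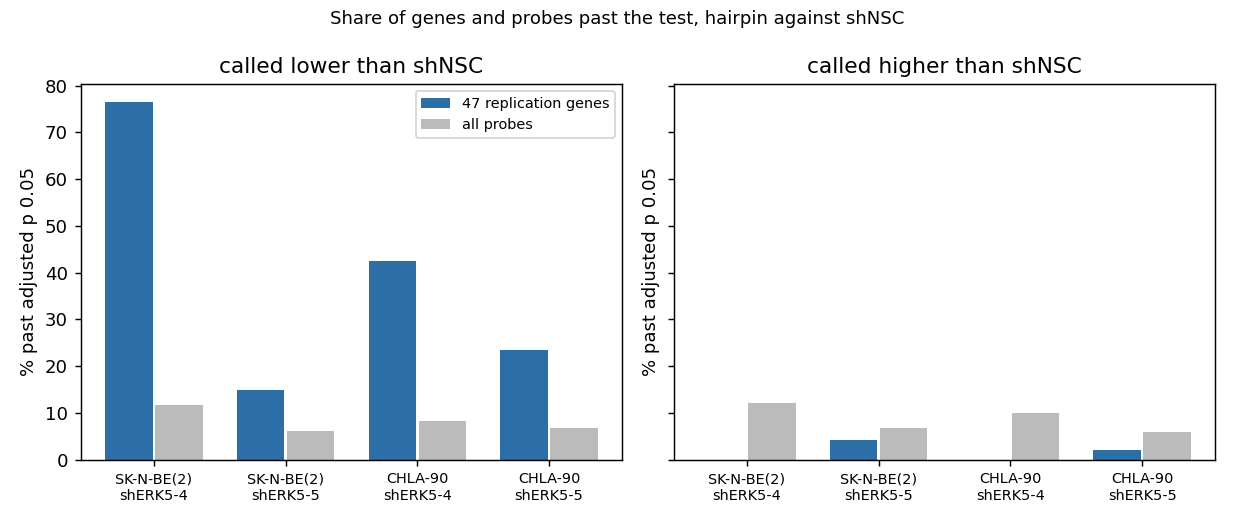
Percent of the 47 replication genes (blue) and of all 21448 probes (grey) called lower (left) or higher (right) than shNSC in each hairpin comparison. The blue bar for lower calls is tallest for shERK5-4 in SK-N-BE(2), where 36 of 47 genes were called, and there is no blue bar for higher calls with shERK5-4 in either line.

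Single arrays moved some of these counts. With shERK5-5 in SK-N-BE(2) the number called lower was 4 without shNSC replicate 2 of that line. With shERK5-5 in CHLA-90 it was 6 without shERK5-5 replicate 1, 6 without shNSC replicate 3 and 7 without shNSC replicate 1, and the number called higher was 2 without shERK5-5 replicate 3. With shERK5-4 the number called lower ranged over 34 to 38 in SK-N-BE(2) and over 16 to 22 in CHLA-90 with any single array removed. The mean of the neuroblastoma markers was lower with shERK5-4: over the 12 genes the log2 signal was 10.3 to 10.6 with shERK5-4 and 11.3 to 11.5 with shERK5-5 in SK-N-BE(2), against 11.3 to 11.4 with shNSC. In CHLA-90 it was 11.70 to 11.99 with shERK5-4 and 13.3 to 13.7 with shERK5-5, against 13.5 to 13.7 with shNSC. Not all 12 moved: with shERK5-4, 6 were called lower and 0 higher in SK-N-BE(2) (11.7% and 12.2% of all probes). In CHLA-90, 8 were called lower and 0 higher with shERK5-4 (8.25% and 10%). The 5 fibroblast markers averaged 9.92 to 10.1 with shERK5-4 and 11.6 to 11.9 with shERK5-5 in SK-N-BE(2), against 10.7 to 10.8 with shNSC. In CHLA-90 they averaged 8.10 to 8.34 with shERK5-4 and 8.81 to 9.12 with shERK5-5, against 8.67 to 8.70 with shNSC. Within these 5 the directions were mixed: with shERK5-4 in SK-N-BE(2), 3 were called lower and 1 higher. All 16 measured markers of other cells, fibroblasts included, averaged 6.61 to 6.74 with shERK5-4 and 7.11 to 7.16 with shERK5-5 in SK-N-BE(2), against 6.93 to 6.95 with shNSC. In CHLA-90 the same 16 averaged 5.84 to 6.06 with shERK5-4 and 6.15 to 6.46 with shERK5-5, against 6.08 to 6.16 with shNSC. No probe was at 0, and the part of these markers in the results was not tested.

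**Figure D2:**
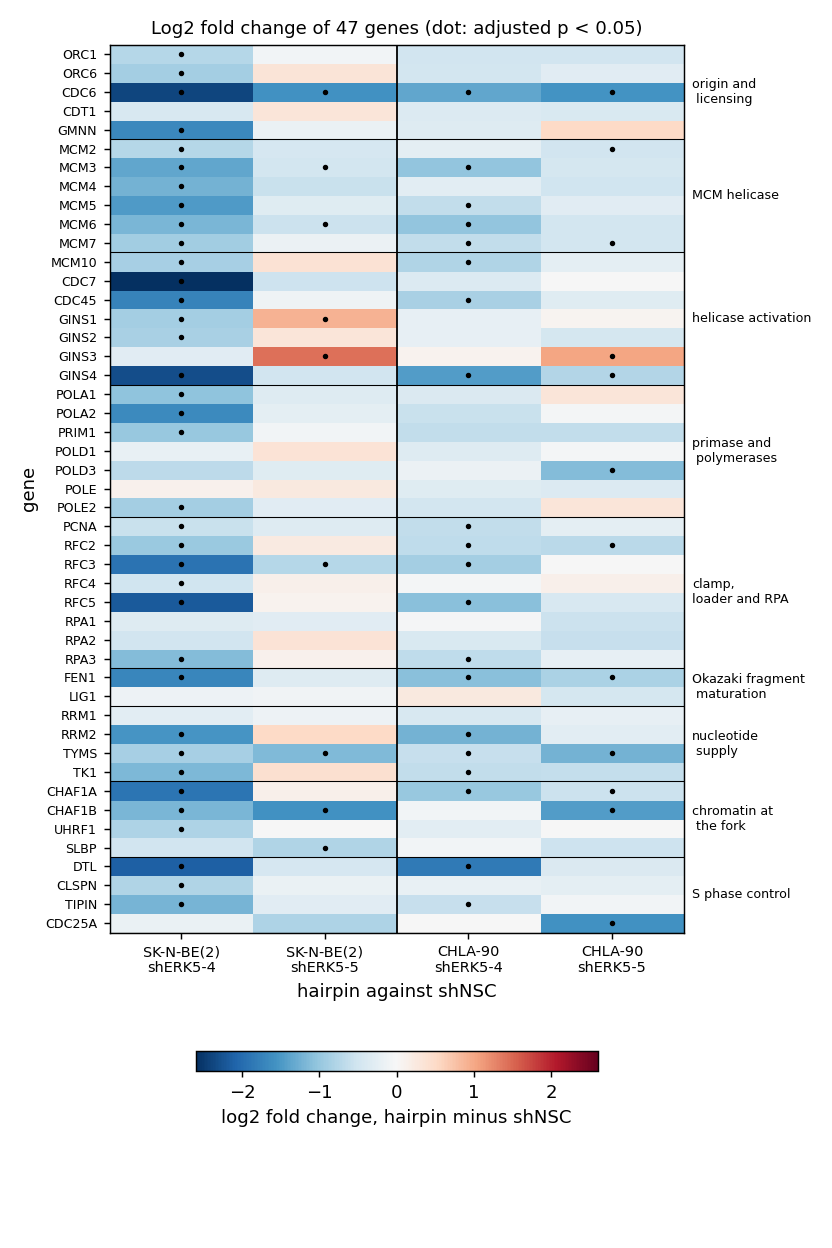
Log2 fold change of each of the 47 genes (rows, grouped by role) for each hairpin against shNSC in its line (columns), with blue below 0, red above 0 and a dot where the adjusted p passed the threshold. The shERK5-4 column of SK-N-BE(2) is blue in 46 of 47 genes, while both shERK5-5 columns are paler and GINS3 is red in both.

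The pair called lower in all 4 comparisons was CDC6 and TYMS, and 0 genes were called higher in all 4, where 0.601% of all probes were lower in all 4 and 0.685% higher. CDC6, the ATPase that loads the helicase at origins, had log2 signals of 9.82, 8.96 and 9.47 with shERK5-4 and 10.04, 10.28 and 10.40 with shERK5-5 in SK-N-BE(2), against 11.72, 11.99 and 11.71 with shNSC. In CHLA-90, CDC6 had 10.86, 10.74 and 11.01 with shERK5-4 and 10.86, 10.62 and 10.52 with shERK5-5, against 12.36, 12.26 and 12.07 with shNSC. All CDC6 hairpin arrays lay more than 1 log2 unit below every shNSC array of their line. In SK-N-BE(2), CDC6 fell to 19.1% of shNSC with shERK5-4 and to 33.8% with shERK5-5 (log2 fold changes -2.39 and -1.57, SE 0.19; adjusted p = 3.22e-09 and 4.11e-06). It fell to 39% and 33.8% with the same hairpins in CHLA-90 (-1.36 and -1.56; adjusted p = 1.66e-05 and 7.43e-06). The hairpins differed in CDC6 in SK-N-BE(2) (-0.82 for shERK5-4 minus shERK5-5, adjusted p = 0.00221), while in CHLA-90 the difference was 0.20 with an interval of -0.20 to 0.60.

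TYMS, thymidylate synthase, makes the thymidine nucleotide from deoxyuridine monophosphate. Its log2 signals in SK-N-BE(2) were 10.99, 10.76 and 10.95 with shERK5-4 and 10.80, 10.39 and 10.64 with shERK5-5, against 11.77, 11.65 and 11.86 with shNSC. In CHLA-90, TYMS had 13.03, 12.89 and 13.21 with shERK5-4 and 12.34, 12.46 and 12.47 with shERK5-5, against 13.63, 13.59 and 13.73 with shNSC. Hairpin and shNSC arrays did not overlap in either line. TYMS changed by -0.86 and -1.15 on the log2 scale with shERK5-4 and shERK5-5 in SK-N-BE(2) (SE 0.15; adjusted p = 0.000181 and 1.3e-05). In CHLA-90 it changed by -0.61 and -1.23 (adjusted p = 0.00705 and 1.01e-05). TYMS was lower with shERK5-5 than with shERK5-4 in CHLA-90, where shERK5-4 minus shERK5-5 was 0.62 (adjusted p = 0.00428), and the SK-N-BE(2) difference of 0.29 did not pass (adjusted p = 0.207).

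**Figure D3:**
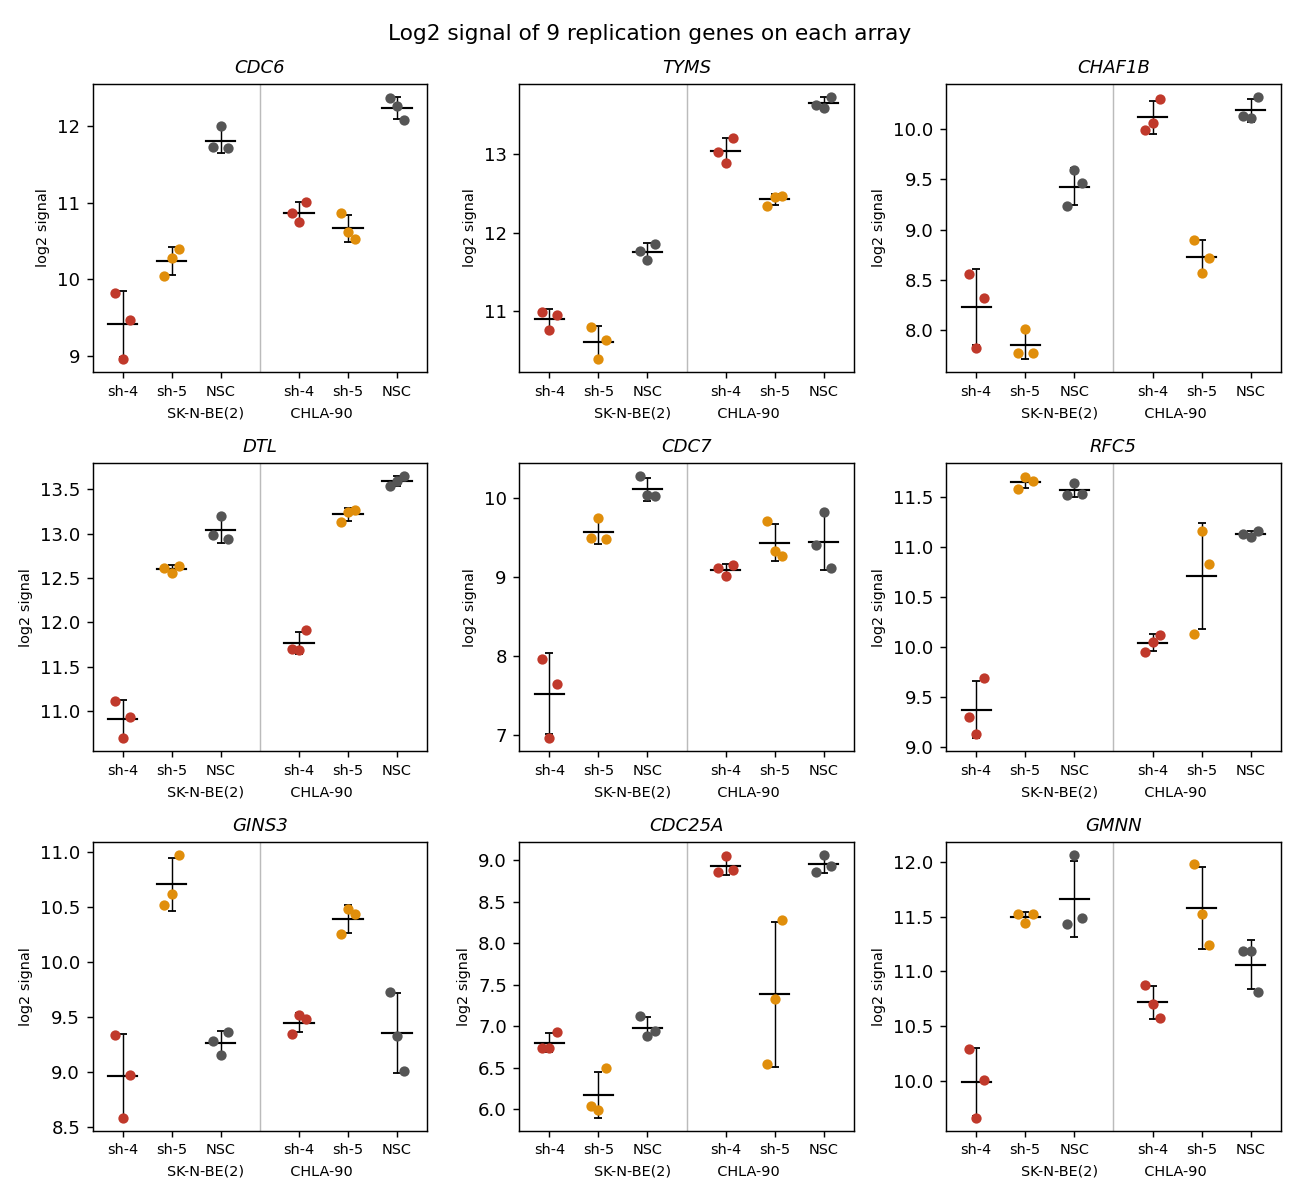
Log2 signal of 9 genes on each array, with sh-4 for shERK5-4, sh-5 for shERK5-5 and NSC for shNSC, SK-N-BE(2) left and CHLA-90 right in each panel; points are arrays, horizontal bars group means and error bars 1 SD (n = 3). CDC6 and TYMS are low with both hairpins in both lines, DTL with shERK5-4 in both, and GINS3 is high with shERK5-5 in both.

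Among the 5 origin recognition and licensing genes, CDC6 alone was called with each of the 2 hairpins. The other members were ORC1 and ORC6, subunits of the origin recognition complex, CDT1, the partner of CDC6 in loading, and GMNN, geminin, the inhibitor of CDT1. With shERK5-4 in SK-N-BE(2), 4 of the 5 fell, among them ORC1 (-0.75), ORC6 (-0.89) and GMNN (-1.67), while CDT1 had a log2 fold change of -0.42 (adjusted p = 0.259). In each of the other comparisons of a hairpin with shNSC only CDC6 was called. ORC1 came near the threshold in CHLA-90, with -0.49 for shERK5-4 and -0.50 for shERK5-5 (limma, adjusted p = 0.0542 and 0.0634). The mean of the 2 hairpins there was called lower for ORC1 (-0.495, adjusted p = 0.0337). GMNN had log2 signals of 10.29, 9.67 and 10.01 with shERK5-4 and 11.52, 11.44 and 11.52 with shERK5-5 in SK-N-BE(2), against 11.43, 12.06 and 11.49 with shNSC. In CHLA-90, GMNN had 10.88, 10.70 and 10.58 with shERK5-4 and 11.98, 11.52 and 11.24 with shERK5-5, against 11.19, 11.19 and 10.81 with shNSC. The shERK5-4 arrays stood clear of the shNSC arrays in SK-N-BE(2) and overlapped with them in CHLA-90.

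The 6 MCM genes encode the hexamer that unwinds DNA at the fork. All 6 fell with shERK5-4 in SK-N-BE(2), by -0.75 (MCM2) to -1.47 (MCM5) on the log2 scale. With shERK5-4 in CHLA-90, 4 of the 6 fell, MCM3 (-1.02), MCM5 (-0.64), MCM6 (-1.03) and MCM7 (-0.63). With shERK5-5, MCM3 (-0.47) and MCM6 (-0.55) fell in SK-N-BE(2), and MCM2 (-0.50) and MCM7 (-0.48) fell in CHLA-90, each with an adjusted p between 0.0408 and 0.0486. All 6 estimates were below 0 in every comparison, with a median of -1.21 and -0.46 with shERK5-4 and shERK5-5 in SK-N-BE(2) and of -0.64 and -0.48 in CHLA-90.

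The order of the hairpins was not the same in all 6 genes. In CHLA-90, MCM2 and MCM4 had means of 9.54 and 12.44 with shERK5-4 and lower ones, 9.29 and 12.20, with shERK5-5. The other 4 were lower with shERK5-4 there. MCM3 was lowest with shERK5-4 in both lines. Its log2 signals were 10.74, 10.46 and 10.82 with shERK5-4 and 11.42, 11.67 and 11.58 with shERK5-5 in SK-N-BE(2), against 12, 12.09 and 12 with shNSC, and these 3 sets of arrays did not overlap. In CHLA-90, MCM3 had 12.69, 12.68 and 12.61 with shERK5-4 and 13.26, 13.07 and 13.35 with shERK5-5, against 13.62, 13.53 and 13.89 with shNSC, again without overlap. The shERK5-5 change of MCM3 in CHLA-90 was -0.45 with an adjusted p of 0.0602. The shERK5-5 calls of MCM3 and MCM6 in SK-N-BE(2) lay near the threshold and were lost without any of 11 single arrays for MCM3 (adjusted p 0.0529 to 0.19) and 9 for MCM6 (0.0529 to 0.244). The shERK5-5 calls in CHLA-90 were lost without any of 11 single arrays for MCM2 (0.0527 to 0.137) and 9 for MCM7 (0.05 to 0.143), and the shERK5-4 call of MCM5 there without any of 3 (0.051 to 0.0866).

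Of the 7 helicase activation genes, 6 fell with shERK5-4 in SK-N-BE(2) and 0 with shERK5-5. CDC7, the kinase that phosphorylates the MCM complex, fell more than any other of the 47 genes with shERK5-4 in SK-N-BE(2). CDC7 had log2 signals of 7.97, 6.96 and 7.65 with shERK5-4 and 9.49, 9.75 and 9.48 with shERK5-5 in SK-N-BE(2), against 10.28, 10.04 and 10.02 with shNSC. In CHLA-90, CDC7 had 9.12, 9.01 and 9.15 with shERK5-4 and 9.71, 9.33 and 9.27 with shERK5-5, against 9.40, 9.82 and 9.12 with shNSC. The fall with shERK5-4 in SK-N-BE(2), to 16.6% of shNSC (-2.59 ± 0.22 SE, adjusted p = 6.91e-09), had no counterpart in CHLA-90, where the arrays met (-0.35, adjusted p = 0.325). CDC45, which bridges MCM and GINS, fell with shERK5-4 in both lines (-1.73 and -0.84), and so did MCM10, a factor of helicase activation (-0.86 and -0.78), whose CHLA-90 call was lost without any of 4 single arrays.

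The 4 subunits of the GINS complex did not move together. GINS4 fell with shERK5-4 in both lines and with shERK5-5 in CHLA-90: it had 7.33, 6.06 and 7.11 with shERK5-4 and 8.44, 8.64 and 8.89 with shERK5-5 in SK-N-BE(2), against 9.06, 9.34 and 9.04 with shNSC. In CHLA-90, GINS4 had 7.65, 7.52 and 7.15 with shERK5-4 and 8.18, 8.06 and 8.15 with shERK5-5, against 8.62, 9.10 and 8.98 with shNSC. Every hairpin array of GINS4 lay below every shNSC array of its line, with changes of -2.31 and -0.49 with shERK5-4 and shERK5-5 in SK-N-BE(2) (adjusted p = 1.63e-07 and 0.24) and of -1.46 and -0.77 in CHLA-90 (0.000119 and 0.0402). The shERK5-5 call in CHLA-90 was lost without any of 6 single arrays (adjusted p 0.0503 to 0.134).

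GINS3 rose with shERK5-5 in both lines, the only 1 of the 47 genes to do so, where 1.94% of all probes did. A count of 1 in 47 is near that share, so it does not set the 47 genes apart. It had 9.34, 8.59 and 8.98 with shERK5-4 and 10.52, 10.62 and 10.97 with shERK5-5 in SK-N-BE(2), against 9.28, 9.16 and 9.37 with shNSC. In CHLA-90, GINS3 had 9.35, 9.52 and 9.48 with shERK5-4 and 10.25, 10.48 and 10.44 with shERK5-5, against 9.73, 9.33 and 9.01 with shNSC. Only the shERK5-5 arrays stood apart, at 270% of shNSC in SK-N-BE(2) (1.43 ± 0.20 SE, adjusted p = 2.03e-05) and 205% in CHLA-90 (1.03, adjusted p = 0.00112).

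GINS1 was the only 1 of the 47 genes that the hairpins moved in opposite directions within a line. Of all probes 1.94% in SK-N-BE(2) and 1.4% in CHLA-90 did so, and 1 in 47 is near the SK-N-BE(2) share. Its signals were 9.42, 9.18 and 9.89 with shERK5-4 and 11.28, 11.18 and 11.40 with shERK5-5 in SK-N-BE(2), against 10.63, 10.20 and 10.31 with shNSC. In that line GINS1 fell with shERK5-4 (-0.88, adjusted p = 0.0011) and rose with shERK5-5 (0.91, adjusted p = 0.00178), with no overlap of arrays. In CHLA-90, GINS1 had 11.28, 11.29 and 11.47 with shERK5-4 and 11.40, 11.98 and 11.54 with shERK5-5, against 11.61, 11.51 and 11.58 with shNSC, and neither hairpin passed. GINS2 fell with shERK5-4 in SK-N-BE(2) (-0.85, adjusted p = 0.00208) and in no other comparison of a hairpin with shNSC.

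The primase and polymerase genes were called in SK-N-BE(2) with shERK5-4 more than elsewhere. Of 7 genes, POLA1 (-1.04) and POLA2 (-1.65) of the primase-bound polymerase, the primase subunit PRIM1 (-0.98) and POLE2 of the leading-strand polymerase (-0.89) fell with shERK5-4 in SK-N-BE(2). The PRIM1 call was lost without any of 2 single arrays (adjusted p 0.0817 to 0.167) and the POLE2 call without 1 (0.0511). POLE, the catalytic subunit that POLE2 accompanies, had changes of 0.11 and 0.26 with shERK5-4 and shERK5-5 in SK-N-BE(2) and of -0.32 and -0.35 in CHLA-90. POLD1, catalytic subunit of the lagging-strand polymerase, had changes of -0.19 and 0.35 in SK-N-BE(2), with -0.33 and -0.05 for CHLA-90. None of these POLE and POLD1 changes passed, with adjusted p of 0.298 or more. POLD1 lay at only 4.01 to 5.62 in SK-N-BE(2), below the array medians. In CHLA-90 the only call against shNSC was POLD3, an accessory subunit, with shERK5-5: it had 8.38, 9.96 and 9.71, against 10.39, 10.71 and 10.34 with shNSC (-1.13, adjusted p = 0.00844). The lowest POLD3 array, shERK5-5 replicate 1, was more than 1 log2 unit below the others of its group.

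The clamp, its loader and the single-strand binding protein RPA form a group of 8 genes, of which 6 fell with shERK5-4 in SK-N-BE(2) and 5 in CHLA-90. RFC5, a subunit of the loader, had 9.30, 9.13 and 9.69 with shERK5-4 and 11.58, 11.70 and 11.66 with shERK5-5 in SK-N-BE(2), against 11.52, 11.64 and 11.53 with shNSC. In CHLA-90, RFC5 had 9.95, 10.05 and 10.12 with shERK5-4 and 10.13, 11.16 and 10.83 with shERK5-5, against 11.13, 11.10 and 11.16 with shNSC. RFC5 thus stood at 21.9% of shNSC with shERK5-4 in SK-N-BE(2) (adjusted p = 2.32e-08) and 47% in CHLA-90 (adjusted p = 0.000378), while the shERK5-5 arrays met the shNSC range in both lines.

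RFC3, another loader subunit, was called with both hairpins in SK-N-BE(2). It had 10.85, 10.51 and 10.81 with shERK5-4 and 11.69, 12.14 and 11.87 with shERK5-5, against 12.66, 12.59 and 12.65 with shNSC (-1.91 and -0.73; adjusted p = 3.9e-08 and 0.00762). The shERK5-5 call of RFC3 in SK-N-BE(2) was lost without 1 single array (adjusted p 0.0534). In CHLA-90, RFC3 had 13.48, 13.37 and 13.45 with shERK5-4 and 14.41, 14.36 and 14.13 with shERK5-5, against 14.35, 14.68 and 13.93 with shNSC (-0.89, adjusted p = 0.0011, and -0.02, adjusted p = 0.964). RFC2 fell with both hairpins in CHLA-90 (-0.65 and -0.71; adjusted p = 0.0418 and 0.0367, calls lost without any of 6 and any of 4 single arrays) and with shERK5-4 in SK-N-BE(2) (-0.96), and RFC4 only narrowly with shERK5-4 in SK-N-BE(2) (-0.52, adjusted p = 0.0439), a call lost without any of 14 single arrays (adjusted p 0.0501 to 0.265).

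PCNA, the sliding clamp, had 13.43, 13.32 and 13.26 with shERK5-4 and 13.55, 13.59 and 13.58 with shERK5-5 in SK-N-BE(2), against 13.86, 14.03 and 13.85 with shNSC. Its falls with shERK5-4 were -0.58 in SK-N-BE(2) and -0.65 in CHLA-90 (adjusted p = 0.0062 and 0.00346). The difference between the lines was -0.07, with an interval (-0.51 to 0.37) too wide to show that the falls were alike. Of the RPA subunits RPA3 fell with shERK5-4 in both lines (-1.13 and -0.66), while RPA1 and RPA2 were not called in any comparison of a hairpin with shNSC. RPA2 was called lower with shERK5-4 than with shERK5-5 in SK-N-BE(2). There its shERK5-4 arrays lay below all shNSC arrays and its shERK5-5 arrays above them.

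Between the Okazaki fragment genes the contrast was wide. FEN1, the nuclease that trims the flap between fragments, had 11.19, 11.07 and 11.52 with shERK5-4 and 12.51, 12.54 and 12.79 with shERK5-5 in SK-N-BE(2), against 12.96, 12.72 and 13.17 with shNSC. In CHLA-90, FEN1 had 11.88, 11.96 and 12.21 with shERK5-4 and 11.96, 12.42 and 12.48 with shERK5-5, against 12.99, 13.03 and 13.31 with shNSC. FEN1 fell with shERK5-4 in both lines (-1.69 and -1.09) and with shERK5-5 in CHLA-90 (-0.82, adjusted p = 0.00435), but not detectably with shERK5-5 in SK-N-BE(2) (-0.34, adjusted p = 0.308). LIG1, the ligase that seals the fragments, had estimates of -0.12 and -0.10 with shERK5-4 and shERK5-5 in SK-N-BE(2) and of 0.26 and -0.46 in CHLA-90, none past the threshold. LIG1 lay at only 3.30 to 3.89 in SK-N-BE(2), below the array medians.

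Of the 4 nucleotide supply genes, the ribonucleotide reductase subunits RRM1 and RRM2 differed in their calls. RRM2, the regulatory subunit whose level follows the cell cycle, had 12.15, 11.77 and 12.23 with shERK5-4 and 13.90, 14.06 and 14.31 with shERK5-5 in SK-N-BE(2), against 13.67, 13.29 and 13.78 with shNSC. In CHLA-90, RRM2 had 13.79, 14.01 and 14.24 with shERK5-4 and 14.64, 15.14 and 15.13 with shERK5-5, against 15.09, 15.21 and 15.43 with shNSC. RRM2 fell with shERK5-4 to 34.6% of shNSC in SK-N-BE(2) (adjusted p = 2.49e-06) and 42.6% in CHLA-90 (6.64e-05), and in SK-N-BE(2) its shERK5-5 arrays lay above all shNSC arrays without passing the test (0.51, adjusted p = 0.0979). RRM1, the catalytic subunit, had -0.27 and -0.14 with shERK5-4 and shERK5-5 in SK-N-BE(2), with -0.41 and -0.21 for CHLA-90 and no call. The RRM1 arrays with shERK5-4 all lay below every shNSC array of their line, the same direction as for RRM2. The mean signal of RRM1 was at a percentile of 99.0, and a difference between the 2 genes was not tested. TK1, the thymidine salvage kinase, fell with shERK5-4 in both lines (-1.17, adjusted p = 0.000187, and -0.63, adjusted p = 0.0398). In CHLA-90 the TK1 arrays with shERK5-4 (9.63, 9.79 and 9.98) met the lowest with shNSC (9.98), and the call was lost without any of 4 single arrays (adjusted p 0.101 to 0.2).

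Among the 4 genes of chromatin at the fork, the subunits of chromatin assembly factor 1, which places histones on new DNA, differed. CHAF1B had 8.56, 7.82 and 8.32 with shERK5-4 and 7.77, 8.01 and 7.77 with shERK5-5 in SK-N-BE(2), against 9.23, 9.59 and 9.46 with shNSC. In CHLA-90, CHAF1B had 9.99, 10.06 and 10.30 with shERK5-4 and 8.90, 8.57 and 8.72 with shERK5-5, against 10.13, 10.11 and 10.32 with shNSC. Both hairpins lay below shNSC in SK-N-BE(2) (-1.19 and -1.58; adjusted p = 2.89e-05 and 2.04e-06), but in CHLA-90 shERK5-5 alone did (-1.46, adjusted p = 1.01e-05), shERK5-4 having a change of -0.07 with an interval of -0.45 to 0.31.

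CHAF1A showed another order. It had 8.60, 8.47 and 8.28 with shERK5-4 and 10.41, 10.56 and 10.48 with shERK5-5 in SK-N-BE(2), against 10.37, 10.30 and 10.39 with shNSC, so that shERK5-4 alone lowered it (-1.90, adjusted p = 1.12e-08). In CHLA-90, CHAF1A had 9.61, 10.01 and 9.64 with shERK5-4 and 9.94, 10.35 and 10.25 with shERK5-5, against 10.87, 10.51 and 10.83 with shNSC, and both fell (-0.98 and -0.56; adjusted p = 0.000148 and 0.0302). The shERK5-5 call of CHAF1A in CHLA-90 was lost without shERK5-5 replicate 1, shNSC replicate 1 or shNSC replicate 3 (adjusted p 0.11 to 0.133). UHRF1, which carries DNA methylation to the new strand, fell with shERK5-4 in SK-N-BE(2) (-0.80), and SLBP, the histone mRNA binding protein, fell with shERK5-5 in SK-N-BE(2) (-0.78, adjusted p = 0.00762). The SLBP call was lost without 1 single array (adjusted p 0.0657).

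In the S phase control group of 4 genes, DTL gave the largest fall of the 47 genes with shERK5-4 in CHLA-90. DTL directs the destruction of CDT1 in S phase. It had 11.11, 10.69 and 10.93 with shERK5-4 and 12.61, 12.56 and 12.64 with shERK5-5 in SK-N-BE(2), against 12.98, 13.20 and 12.94 with shNSC. In CHLA-90, DTL had 11.70, 11.69 and 11.91 with shERK5-4 and 13.13, 13.25 and 13.27 with shERK5-5, against 13.54, 13.60 and 13.65 with shNSC. The 3 groups did not overlap in either line, and shERK5-4 lowered DTL to 22.8% and 28.1% of shNSC (adjusted p = 4.86e-10 and 8.06e-09), while the shERK5-5 changes of -0.44 and -0.38 did not pass (0.0635 and 0.107). TIPIN, a fork protection factor, fell with shERK5-4 in both lines (-1.20 and -0.61), and CLSPN, the checkpoint adaptor claspin, in SK-N-BE(2) (-0.78). The CHLA-90 call of TIPIN and the call of CLSPN were each lost without any of 2 single arrays.

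CDC25A, the phosphatase that frees cyclin-dependent kinases for S phase, went with the other hairpin. It had 6.73, 6.74 and 6.93 with shERK5-4 and 6.04, 5.99 and 6.49 with shERK5-5 in SK-N-BE(2), against 7.12, 6.88 and 6.94 with shNSC. In CHLA-90, CDC25A had 8.86, 9.05 and 8.88 with shERK5-4 and 6.54, 7.33 and 8.28 with shERK5-5, against 8.86, 9.06 and 8.93 with shNSC. The shERK5-5 arrays of CDC25A in CHLA-90 were spread over more than 1 log2 unit but all lay below shNSC (-1.57 ± 0.27 SE, adjusted p = 0.000359), and in SK-N-BE(2) the change of -0.81 just missed the threshold (adjusted p = 0.0511).

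Counted over genes, 2 of the 47 were called lower in all 4 comparisons, 9 in 3, 11 in 2, 17 in 1 and 8 in 0. The 8 called lower in none of these 4 were CDT1, GINS3, POLD1, POLE, RPA1, RPA2, LIG1 and RRM1. Called lower with both hairpins in SK-N-BE(2) were 6 genes, CDC6, MCM3, MCM6, RFC3, TYMS and CHAF1B, against 2.36% of all probes. Called lower with both in CHLA-90 were 7 genes, CDC6, MCM7, GINS4, RFC2, FEN1, TYMS and CHAF1A, against 1.77% of all probes. No gene of the 47 was called higher with both hairpins of a line, where 2.85% and 1.74% of all probes were. The 7 genes lower with both hairpins in CHLA-90 became 3 without shERK5-5 replicate 1 or shNSC replicate 3, and 4 without shNSC replicate 1 of CHLA-90 or shERK5-5 replicate 2 of SK-N-BE(2). For the mean of the 2 hairpins against shNSC, 26 genes were lower and 1 higher in SK-N-BE(2) (8.43% and 8.58% of all probes), and 18 were lower and 1 higher in CHLA-90 (6.29% and 5.57%). Array by array, the 3 arrays of a hairpin were all lower than the lowest shNSC array for 39 genes with shERK5-4 (16.1% of all probes) and 17 with shERK5-5 (14.2%) in SK-N-BE(2), and for 31 (16.6%) and 21 (12.7%) with the same hairpins in CHLA-90. They were all higher than the highest shNSC array for 0 genes with shERK5-4 in either line (16.6% and 20.9% of all probes), for 8 genes with shERK5-5 in SK-N-BE(2) (15.7%) and for 3 with shERK5-5 in CHLA-90 (14.1%).

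The hairpins were also tested against each other. In SK-N-BE(2), 34 of the 47 genes were lower with shERK5-4 than with shERK5-5 and 0 were higher, against 12.6% and 11.8% of all probes, with a median log2 difference of -0.86. In CHLA-90, 13 were lower and 5 higher with shERK5-4, against 12.4% and 14.8% of all probes, with a median of -0.26. The widest differences in SK-N-BE(2) were RFC5 (-2.27), CDC7 (-2.05), RRM2 (-2.04) and CHAF1A (-2.03). The 5 genes higher with shERK5-4 in CHLA-90 were CDC25A (1.55), CHAF1B (1.39), POLD3 (0.97), LIG1 (0.72) and TYMS (0.62), and without shERK5-5 replicate 1 of that line the number was 3.

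**Figure D4:**
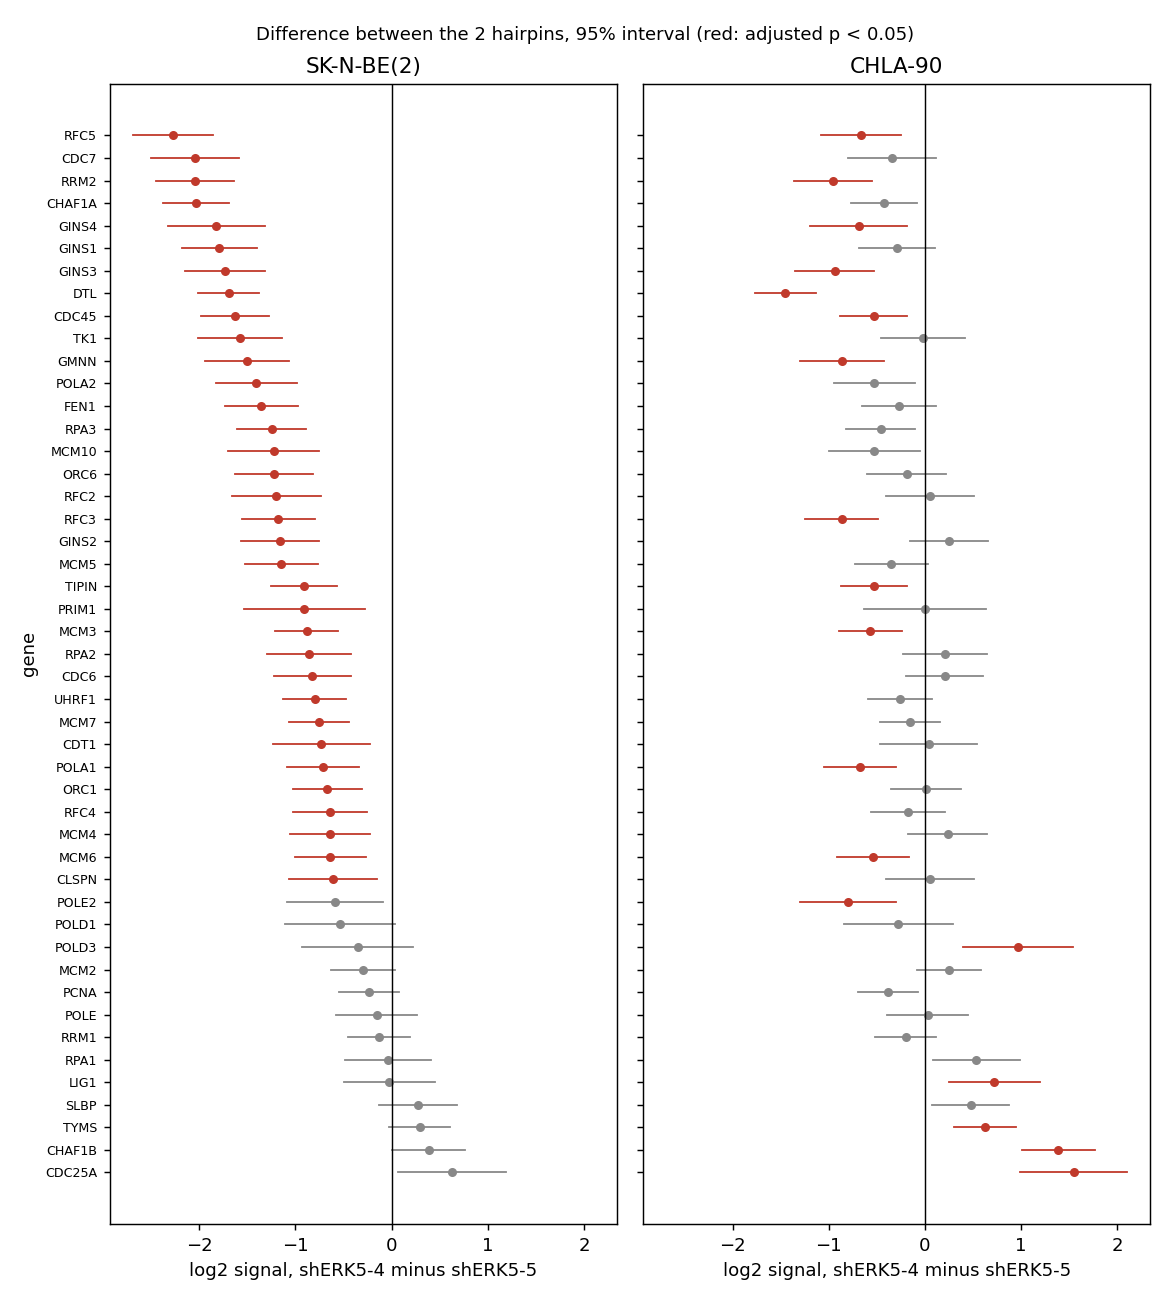
Log2 signal with shERK5-4 minus that with shERK5-5 for each of the 47 genes in SK-N-BE(2) (left) and CHLA-90 (right), with the 95% confidence interval of the model and red for an adjusted p past the threshold. In SK-N-BE(2) 34 genes are red and all of those lie left of 0, while in CHLA-90 13 red genes lie left of 0 and 5 right of it.

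The lines share no arrays, so a hairpin's changes could be set side by side in them. With shERK5-4, 20 of the 36 genes that fell in SK-N-BE(2) (55.6%) were those that fell in CHLA-90, which were all 20 there (100%), while 5% of all probes were lower in both. With shERK5-5, 3 genes fell in both lines, CDC6, TYMS and CHAF1B, while 2.63% of all probes were lower in both. These 3 were 42.9% of the 7 that fell in SK-N-BE(2) and 27.3% of the 11 in CHLA-90. GINS3 alone rose with shERK5-5 in both lines, while 1.94% of all probes were higher in both, a share near 1 in 47. With shERK5-4, 0 genes rose in both, against 5.43% of all probes. Across the 47 genes the shERK5-4 changes in the lines had a Pearson correlation of 0.72 and a Spearman correlation of 0.71, and 44 had the same sign. The shERK5-5 changes had 0.61 and 0.33, with 31 of the same sign. Over all 21448 probes the Pearson correlations were 0.60 with shERK5-4 and 0.37 with shERK5-5. These correlations are across genes, which are not independent and share their shNSC arrays within a line, and they are given as a description.

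The fall with shERK5-4 was smaller in CHLA-90 for 10 of the 47 genes by the test of the difference between lines and larger for 0, against 3.89% and 3.33% of all probes. CDC7 differed most, by 2.23 on the log2 scale (CHLA-90 change minus SK-N-BE(2) change, adjusted p = 6.29e-05), followed by GMNN (1.33, adjusted p = 0.00667), CHAF1B (1.12, adjusted p = 0.00849), RFC5 (1.10) and POLA2 (1.08). CDC6, RFC3, MCM4, CHAF1A and CDC45 differed by 0.89 to 1.03. Leaving out single arrays lost the call of MCM4 in 11 cases (adjusted p 0.0518 to 0.109), of CDC45 in 5, of CDC6 in 4, of POLA2 in 3, of CHAF1A in 2 and of RFC3 in 1. The number was 6 without CHLA-90 shERK5-4 replicate 2 or CHLA-90 shNSC replicate 2, and 5 after quantile normalization. With shERK5-5, 1 gene was lower in the difference, TK1 (-1.02, adjusted p = 0.0475), and 0 were higher, against 2.99% and 2.4% of all probes. In CHLA-90, TK1 had 9.48, 9.85 and 10.12 with shERK5-5, against 10.74, 9.98 and 10.57 with shNSC, and in SK-N-BE(2) it had 10.60, 10.53 and 10.55 with shERK5-5, against 10.34, 9.98 and 10.14 with shNSC. The TK1 call was lost without any of 13 single arrays.

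**Figure D5:**
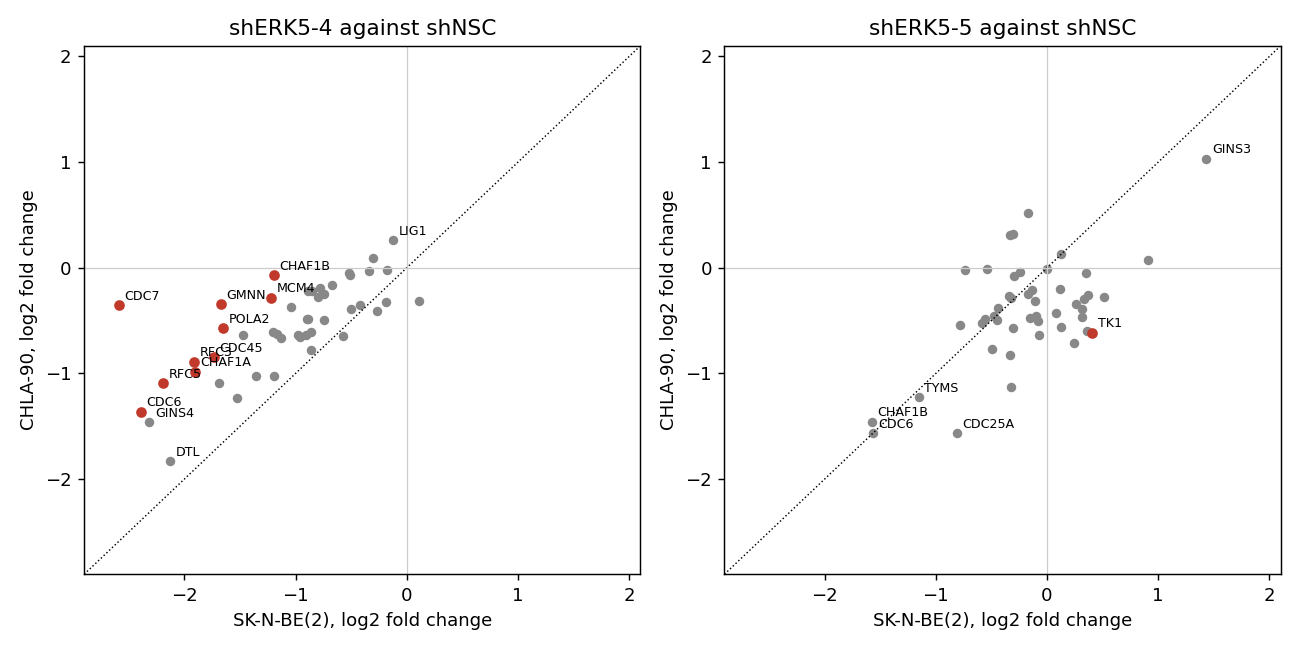
Log2 fold change against shNSC in CHLA-90 (vertical) and SK-N-BE(2) (horizontal) for the 47 genes with shERK5-4 (left) and shERK5-5 (right); the dotted line marks equal change and red points passed the test of the difference between lines. With shERK5-4 the 10 red genes lie above the dotted line, while with shERK5-5 CDC6, TYMS and CHAF1B (called in both lines) and CDC25A (called in CHLA-90) lie low in both lines and GINS3 lies high in both.

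Levels of the 47 genes under shNSC could not be compared between lines without a choice of scale. With array medians set equal, 20 genes were lower and 12 higher in CHLA-90 than in SK-N-BE(2), against 37.1% and 19.2% of all probes. On the values as deposited 3 were lower and 21 higher. No order of the lines was read from these counts.

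Beyond the 47 genes, a second list was chosen, also with earlier results of these data known. It held 56 other genes of replication and nucleotide metabolism, of which 51 were measured. With shERK5-4 in SK-N-BE(2), 23 of them fell (45.1%, against 11.7% of all probes) and 4 rose (7.84%, against 12.2%). With shERK5-4 in CHLA-90, 8 fell (15.7%, against 8.25%) and 4 rose (7.84%, against 10%). With shERK5-5, 7 fell (13.7%, against 6.07%) and 2 rose (3.92%, against 6.76%) in SK-N-BE(2), while 3 fell (5.88%, against 6.84%) and 4 rose (7.84%, against 5.85%) in CHLA-90. Their median log2 fold changes were -0.39 and 0.07 with shERK5-4 and shERK5-5 in SK-N-BE(2), with -0.06 and -0.10 for CHLA-90. Both hairpins lowered ATAD5, the PCNA unloader (-1.27 and -0.55), TOP1, topoisomerase 1 (-1.29 and -0.74), and HELLS, a chromatin remodeller (-0.90 and -1.25), in SK-N-BE(2). CMPK1, the kinase that phosphorylates CMP and UMP, rose in all 4 comparisons, by 0.65 and 0.75 with shERK5-4 and shERK5-5 in SK-N-BE(2) and by 1.48 and 0.96 in CHLA-90. CMPK1 had 9.77, 9.33 and 10.08 with shERK5-4 and 9.70, 9.89 and 9.88 with shERK5-5 in SK-N-BE(2), against 9.16, 9.15 and 8.91 with shNSC. Singled out after their values were seen, MTHFD1, which supplies folate units, fell with shERK5-4 (-3.84 in SK-N-BE(2) and -2.69 in CHLA-90) and had shERK5-5 changes of -0.06 and -0.23, and RRM2B, the p53-inducible reductase subunit, rose with shERK5-4 by 1.81 and 1.72, with shERK5-5 changes of 0.27 and 0.19.

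A further list of 21 S phase regulators, chosen in the same way, had 20 measured genes. With shERK5-4 in SK-N-BE(2), 12 fell (60%, against 11.7% of all probes) and 2 rose (10%, against 12.2%). With shERK5-4 in CHLA-90, 7 fell (35%, against 8.25%) and 0 rose, against 10%. With shERK5-5, 2 fell (10%, against 6.07%) and 2 rose (10%, against 6.76%) in SK-N-BE(2), while 4 fell (20%, against 6.84%) and 2 rose (10%, against 5.85%) in CHLA-90. Their medians were -0.92 and -0.00 with shERK5-4 and shERK5-5 in SK-N-BE(2), with -0.20 and -0.09 for CHLA-90. RAD1, part of the checkpoint clamp, fell in all 4 comparisons, with changes of -1.64 and -1.38 with shERK5-4 and shERK5-5 in SK-N-BE(2) and of -0.93 and -1.79 in CHLA-90. CCNE2, cyclin E2, fell with both hairpins in SK-N-BE(2) (-2.55 and -0.74). In CHLA-90, CCNE2 had means of 8.35 with shERK5-4 and 9.05 with shERK5-5, against 9.28 with shNSC. CCNA2, cyclin A2, and CDC25C, a mitotic phosphatase, fell with both in CHLA-90 (-2.54 and -0.50 for CCNA2, -1.51 and -0.89 for CDC25C). These 2 genes were also low with shERK5-4 in SK-N-BE(2). There CCNA2 had means of 11.87 with shERK5-4 and 14.35 with shERK5-5, against 14.51 with shNSC. CDC25C had 6.65 and 8.18 there, against 8.22. WEE1, the kinase that inhibits cyclin-dependent kinases, and CDC25B, a phosphatase that opposes it, both rose with both hairpins in SK-N-BE(2) (0.84 and 0.82 for WEE1, 1.08 and 1.55 for CDC25B). In CHLA-90 too, every hairpin array of WEE1 and CDC25B lay above every shNSC array. Singled out after its values were seen, SKP2, a ubiquitin ligase subunit of the G1 to S transition, fell with shERK5-4 (-4.09 in SK-N-BE(2) and -3.70 in CHLA-90) and had shERK5-5 changes of -0.00 and -0.40.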

How the data were processed

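Total RNA from 2 neuroblastoma lines was measured on 18 biotin-labelled whole-transcript arrays. The deposited values are log2 signals with 2 decimals, 1 per probe, as the authors summarised and normalized them. That the base is 2 follows from their range. How they were summarised, with which software and on which build is not given in the sources used here. Arrays have no read depth, so precision depends on how many there are. No detection calls were used.

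Groups came from the labels. A limma 3.58.1 model (R 4.3.3, lmFit and eBayes) with a mean for each of 6 groups was fitted to all 21448 probes, with 12 residual and 9.59 prior degrees of freedom. The Benjamini-Hochberg adjustment covered all probes within each contrast (threshold 0.05, no minimum fold). SE is the model's standard error. Fits were tested on simulated data. Symbols came from the platform's probe table (17709 probes with 1 symbol, 3739 with none). Deviations of same-numbered arrays correlated over 0.1 in 3 of 9 pairs in SK-N-BE(2) and 4 of 9 in CHLA-90, among them all pairs of replicate 3 (0.114 to 0.204), but not in every pair (lowest -0.126), so replicate numbers were not used as pairs.

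The 47 genes, both further lists and the tests were chosen with earlier results of these data known. Every array was printed for genes called alike in all 4 comparisons, the 5 largest mean changes per line among genes called alike with both hairpins, genes called in opposite directions, the 3 strongest differences between lines per hairpin, and up to 3 genes higher per comparison. DTL, RFC5, RRM2, PCNA, POLD3 and CDC25A were added after their values were seen. Genes of the further lists were named if called alike with both hairpins in a line. Alternatives are given in the closing section. Promoters are RefSeq's (GRCh38.p14). Figures were drawn with matplotlib 3.10.9 (Python 3.11.15).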

Additional observations from a re-analysis of the deposited data

Results flagged for a closer look

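For 10 of the 47 genes the shERK5-4 effect differed between the lines by limma's test of the difference, and each difference (CHLA-90 minus SK-N-BE(2), log2) was above 0. Of all probes 3.89% were called above 0 and 3.33% below. It was 2.23 for CDC7, 1.33 for GMNN, 1.12 for CHAF1B, 1.10 for RFC5, 1.08 for POLA2, 1.03 for CDC6, 1.02 for RFC3, 0.94 for MCM4, 0.92 for CHAF1A and 0.89 for CDC45. With shERK5-5 the test of the difference between lines picked out TK1 alone, at -1.02, where 2.99% of all probes were called lower. Leaving out single arrays lost the call of TK1 in 13 cases and of MCM4 in 11. It lost that of CDC45 in 5, CDC6 in 4, POLA2 in 3, CHAF1A in 2 and RFC3 in 1.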

How the results depend on the processing

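Each comparison was refitted under 11 other settings and with each of the 18 arrays left out in turn, and no gene's called change reversed. Counts among the 47 genes that moved by more than 1.5 times were these. Quantile normalization gave 5 genes less lowered by shERK5-4 in CHLA-90 than in SK-N-BE(2) (10 as reported), 0 for the shERK5-5 difference (1) and 10 lower between lines under shNSC (20), where the values as deposited gave 3 lower and 21 higher (20 and 12). The replicate block gave 4 for the shERK5-5 difference between lines (1), and it moved no other count by that much. Fits to 1 line gave 1 gene higher with shERK5-4 than shERK5-5 in SK-N-BE(2) (0) and 4 lower with both hairpins in CHLA-90 (7), and no comparison between lines. Array weights gave 12 lower with shERK5-5 in SK-N-BE(2) (7), 1 for that hairpin difference (0) and 10 lower with both hairpins (6). A threshold of 0.01 gave 6 lower with shERK5-5 in CHLA-90 (11), 7 lower and 3 higher for shERK5-4 against shERK5-5 there (13 and 5), 3 lower with both hairpins there (7), and 3 and 0 for the differences between lines (10 and 1). Leaving out 1 array gave these ranges. With shERK5-4, 34 to 38 genes were lower in SK-N-BE(2) and 16 to 22 in CHLA-90. With shERK5-5, 4 to 9 were lower and 2 higher in SK-N-BE(2), and 6 to 14 lower and 1 to 2 higher in CHLA-90. For the mean of the hairpins, 22 to 28 were lower in SK-N-BE(2) and 13 to 19 in CHLA-90, with 0 to 1 higher in each. For shERK5-4 against shERK5-5, 29 to 34 were lower and 0 to 1 higher in SK-N-BE(2), and 9 to 14 lower and 3 to 6 higher in CHLA-90. With both hairpins, 4 to 9 were lower in SK-N-BE(2) and 3 to 8 in CHLA-90, and 2 to 3 were lower in all 4 comparisons. The difference between lines gave 6 to 11 higher with shERK5-4, and 0 to 4 lower and 0 to 1 higher with shERK5-5. The lines under shNSC gave 17 to 21 lower and 11 to 12 higher. Of the 376 single gene results (47 genes in 8 comparisons), 38 lost and 30 gained a call under at least 1 other setting, and 40 lost and 39 gained one without at least 1 of the arrays. The cause of these moves was not tested. The background of each probe is unknown, which limits what can be said of dim genes such as LIG1.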
